A study of Arabidopsis thaliana with 8 samples.

Results

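Leaf senescence and the breakdown of chlorophyll were followed here through 9 Arabidopsis thaliana genes, picked by locus identifier from 24132 genes listed in at least 1 library. They are the marker genes SAG12 (AT5G45890) and SAG13 (AT2G29350), the NAC transcription factor genes NAP (AT1G69490), ORE1 (AT5G39610) and ORS1 (AT3G29035), and the chlorophyll breakdown genes SGR1 (AT4G22920), NYC1 (AT4G13250), PAO (AT3G44880) and PPH (AT5G13800). All 9 were among the 19259 genes that passed the low-count filter, and 8 had counts in every library. SAG12 passed through its droughted libraries alone. The rule names loci and uses no measured value, but the genes were proposed with earlier results of these data known.

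The study measured RNA by sequencing in Columbia-0 plants that were 3 weeks old, to see what overexpression of the transcription factor gene VaWRKY14 changes with and without water. The 4 groups were VaWRKY14-overexpressing (OE) plants left without water for 5 days, wild-type (WT) plants treated the same way, OE plants under normal conditions and WT plants under normal conditions. Each group held 2 libraries, and the groups under normal conditions are called watered here. The OE material is described as a mixture of transgenic plants, and the promoter of the transgene is not given in the sources used here. For 1 droughted OE library, replicate 1, the genotype entry reads VaWRKY15, against VaWRKY14 in the title. Nothing in the labels says that the 2 libraries of a group came from separate cultivations, so p-values measure the spread between these libraries, which may be technical.

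The libraries held 9591274 to 11378571 expected counts each. Droughted and watered libraries parted on the leading principal component (47.4% of the variance), and the first watered WT library stood apart on the next, at -41.43 against -6.37 to 24.77 for the other 7. The labels give the tissue as whole plants. Of 6 root markers, COBL9 and EXPA7 were at 0 in all 8 libraries, and TIP2;3 and CASP1 had at most 1 count in a library. The other 2 were detected in every library, PYK10 at 10.3 to 23.1 CPM in droughted libraries and 30.7 to 48.9 CPM in watered ones, and SHR at 14.7 to 17.2 CPM and 12.4 to 13.5 CPM, so the 6 summed to 27.0 to 37.9 CPM in droughted libraries and 44.2 to 61.8 CPM in watered ones. All 4 green-shoot markers were detected everywhere, with a summed level of 17945 to 26678 CPM in droughted libraries and 43990 to 68652 CPM in watered ones. CPM is the count divided by the scaled library size, with the usual CPM multiplier. In such bulk samples, fewer cells of a type and less RNA per cell cannot be told apart.

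A senescing leaf takes apart its chloroplasts and exports the nitrogen they hold. NAC transcription factors such as NAP, ORE1 and ORS1 promote this programme in Arabidopsis, and abscisic acid, which accumulates in dry plants, is among the signals that start it. NYC1 reduces chlorophyll b on the way to chlorophyll a, SGR1 removes magnesium from chlorophyll a, PPH cuts off the phytol chain, and PAO opens the pigment ring. SAG12 encodes a cysteine protease made in old leaves and is widely used as a marker of developmental senescence. SAG13 encodes a short-chain dehydrogenase-like protein whose transcript marks early senescence and also other stresses.

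Because the study overexpressed a WRKY factor, and because drought acts in part through abscisic acid, the bases just upstream of each gene were read for 2 motifs. The windows were the 250 bases before the annotated gene start in the TAIR10.1 assembly (RefSeq), searched on both strands. The W-box, the element that WRKY factors bind, was searched as TTGACC or TTGACT and was in 0 of the 9 windows, against 28.4% of the windows of 27443 protein-coding genes. ACGTG, the core of the abscisic acid response element, was in 2 of the 9, SAG13 and NAP, against 22.9% of all windows. A match describes letters and not a bound site, and no match says only that these letters are not in the window. SAG12 is shown because its transcript differed most between groups, and NAP because its motif reads ACGTG on both strands, which overlap. Capitals mark that motif, at 242 to 237 bases before the NAP start. The SAG12 window is chr5:18612989-18613238 and the NAP window is chr1:26121830-26122079, both on the plus strand.
SAG12: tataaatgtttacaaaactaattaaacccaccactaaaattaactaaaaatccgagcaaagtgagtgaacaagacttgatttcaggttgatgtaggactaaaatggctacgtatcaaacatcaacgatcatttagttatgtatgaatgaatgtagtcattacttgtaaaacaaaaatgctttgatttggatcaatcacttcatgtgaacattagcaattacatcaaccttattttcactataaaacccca
NAP: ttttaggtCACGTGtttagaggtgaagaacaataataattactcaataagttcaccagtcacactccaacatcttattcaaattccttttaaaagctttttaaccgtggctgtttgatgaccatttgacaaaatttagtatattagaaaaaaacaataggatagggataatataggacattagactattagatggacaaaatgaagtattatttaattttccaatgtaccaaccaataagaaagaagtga

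Per unit of transcript length, NYC1 had the highest level of the 9 genes on average. The deposited FPKM value, a count set against transcript length and library size, averaged 160.8 over the 8 libraries for NYC1. It led in 7 of the 8 libraries, and in the first watered WT library SAG13 was higher, at 176.02 FPKM against 169.3 FPKM for NYC1. On average SAG13 at 56.7 FPKM, PAO at 53.4 FPKM and PPH at 48.6 FPKM followed. SAG12 averaged 27.2 FPKM, NAP 25.6 FPKM, ORE1 22.3 FPKM, ORS1 16.2 FPKM and SGR1 12.7 FPKM. The SAG12 and SAG13 averages rest on few libraries, with ranges of 0 to 158.56 FPKM and 18.42 to 176.02 FPKM. PAO and PPH lay above NAP, ORE1, ORS1 and SGR1 in every library, with 34.5 FPKM as the lowest value of the first 2 and 33.7 FPKM as the highest of the other 4. Across libraries the ranges of NAP, ORE1, ORS1 and SGR1 overlapped, as did those of SAG13, PAO and PPH. Within every library NAP and ORE1 were each above ORS1 and SGR1. NYC1, at 148.08 to 197.23 FPKM, varied least, by 1.33-fold between its lowest and highest library.

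**Figure D1:**
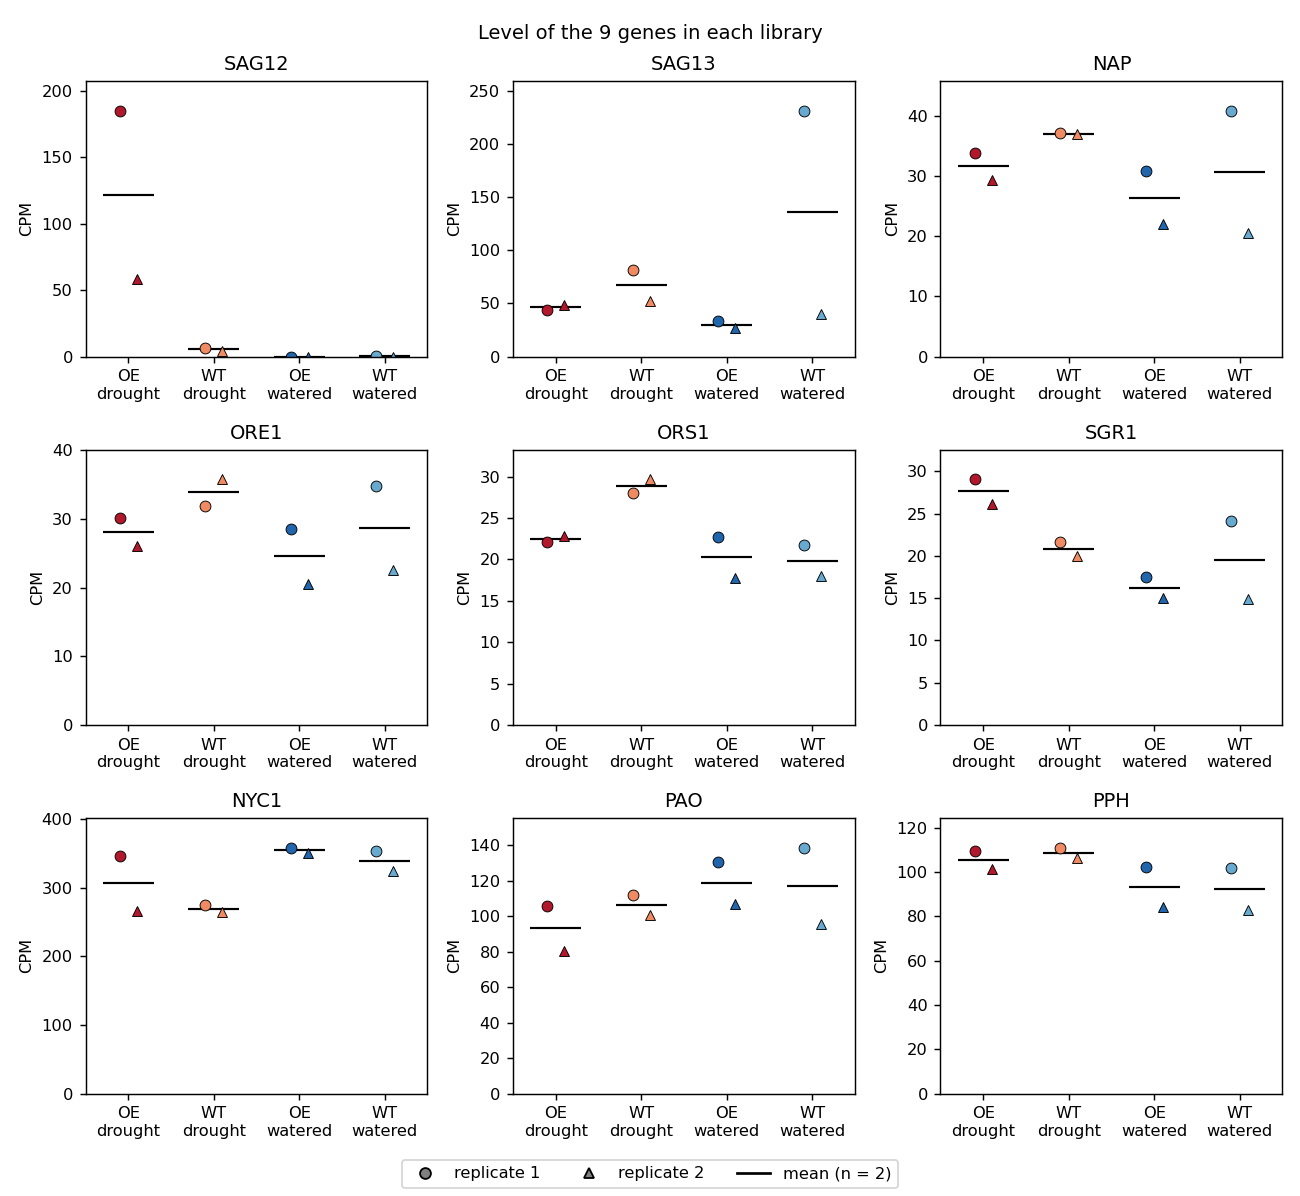
Level of each of the 9 genes in each library, in CPM on an axis that starts at 0. Circles are replicate 1, triangles replicate 2 and lines the mean of 2 libraries. The 2 droughted OE libraries carry SAG12 at 185.3 and 58.6 CPM, above all others, and 1 watered WT library carries SAG13 at 231.9 CPM.

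SAG12 was the gene that stood out. It had 2254 and 727 counts in droughted OE libraries, 63 and 55 in droughted WT libraries, 0 and 0 in watered OE libraries, and 1 and 0 in watered WT libraries. That is 185.3 and 58.6 CPM in droughted OE plants, against 6.19 and 4.45 CPM in droughted WT plants. Both droughted OE libraries lay above both droughted WT libraries, by 9.48-fold to 41.6-fold depending on the pair, and every droughted library lay above every watered one.

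Whether the difference between droughted OE and WT plants in SAG12 passed the threshold depended on the estimate of spread. The level averaged 122.0 ± 89.5 CPM in droughted OE plants and 5.32 ± 1.23 CPM in droughted WT plants (SD, n = 2 each), a log2 fold change of 4.53 ± 0.86 (SE). It was the fourth highest of the 19259 genes tested in this comparison. The edgeR quasi-likelihood test gave an adjusted p of 0.344, so SAG12 was not called. The 2 droughted OE libraries differed from each other by 3.16-fold, and its dispersion was at percentile 99.9 of all genes. DESeq2 gave 4.52 with an adjusted p of 7.16e-32, and limma on log2(FPKM + 1) gave 4.06 with an adjusted p of 0.0015. Leaving out the first droughted OE library, the one whose genotype label differs, gave 3.48 and an adjusted p of 1.99e-06 in edgeR, and leaving out the second gave 5.14 and 6.29e-09. In these fits, as in every fit without 1 library, the remaining library of the group is assumed to vary like those of the other groups, so the 3.16-fold gap no longer entered the spread and these p-values do not add to the evidence for SAG12. The pooled count ratio was 23.2, with a 95% interval of 19.3 to 28.1 that covers counting error only.

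The 0 counts in watered OE libraries allow up to 0.296 and 0.313 CPM of SAG12, the level of 3 counts. The mean SAG12 level of droughted OE plants, 122.0 CPM, was at least 400.7-fold above the mean of these floors. That bound holds for the means and not for each library, as the second droughted OE library was at 58.6 CPM. edgeR called the rise in OE plants (adjusted p = 0.0367). The adjusted p was 0.0944 to 0.099 when any 1 of the WT or watered OE libraries was left out, and 0.263 when only the OE libraries were fitted. In WT plants the 118 counts in droughted libraries stood against 1 count in watered ones, a ratio of 108.1 with a 95% counting interval of 19.0 to 4306.2. edgeR did not call it (adjusted p = 0.276), while DESeq2 did (adjusted p = 0.000159). Because watered libraries held 0 or 1 count, the difference of the drought responses of OE and WT could not be determined for SAG12. The nearest gene downstream, AT5G45900 at 211 bases, encodes the autophagy protein ATG7. It averaged 14.6 CPM in droughted OE plants and 11.3 CPM in droughted WT plants, 0.36 ± 0.17 on the log2 scale (adjusted p = 0.532).

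Flower markers were read in the same libraries. The summed level of 8 genes that act in flowers was 81.5 and 60.0 CPM in droughted OE libraries, 35.9 and 40.8 CPM in droughted WT libraries, 6.02 and 22.6 CPM in watered OE libraries, and 27.1 and 21.0 CPM in watered WT libraries. The 2 droughted OE libraries were the highest, and all 8 markers had counts in every library except the first watered OE library, where AT5G07230 was at 0. AP1 was at 14.1 and 8.95 CPM in droughted OE libraries, against 4.4 and 7.93 CPM in droughted WT libraries. SEP2 overlapped, at 8.47 and 4.92 CPM in droughted OE libraries, against 5.01 and 3.16 CPM in droughted WT libraries. In the same order, SAG12 was at 185.3 and 58.6 CPM in droughted OE libraries, 6.19 and 4.45 CPM in droughted WT libraries. Watered libraries held 0 or 1 count of SAG12. The part of the flower markers in the SAG12 result was not tested.

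**Figure D2:**
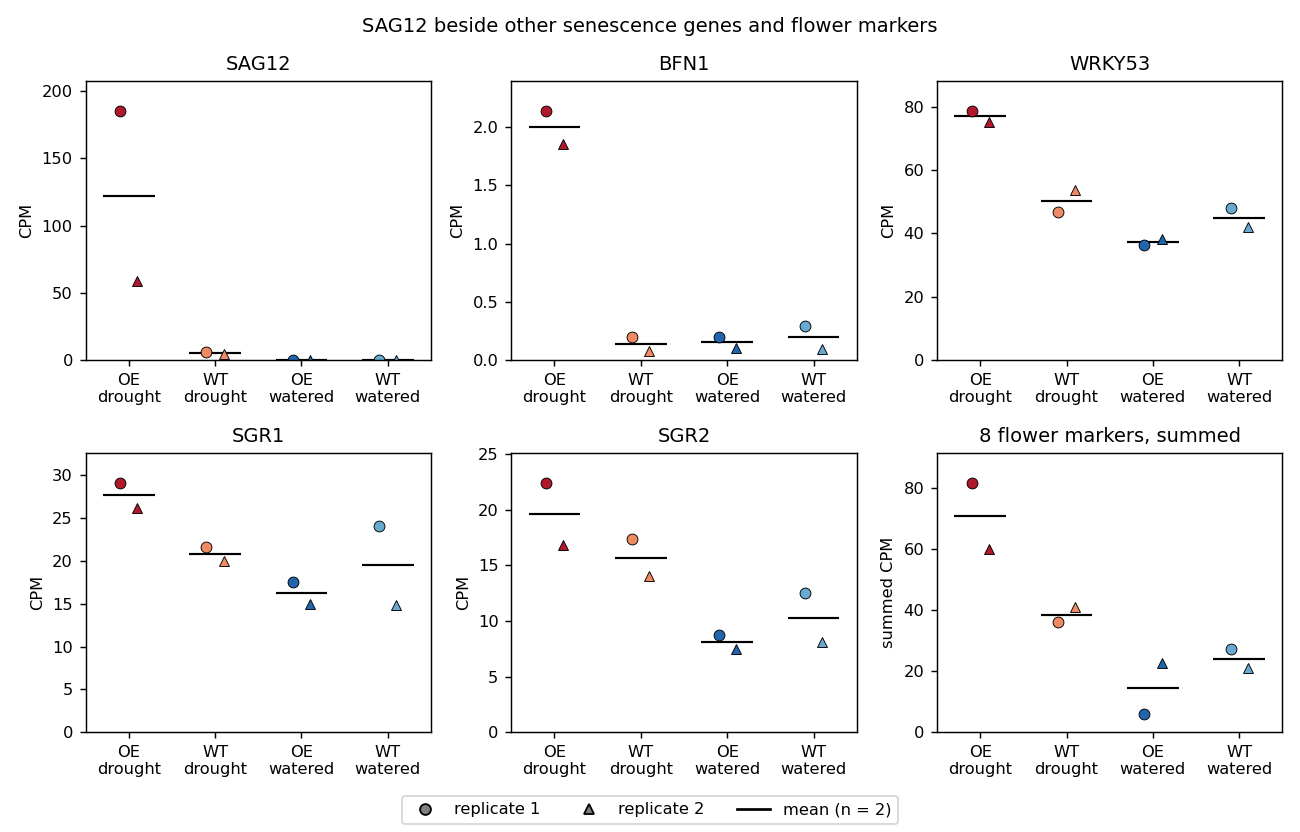
SAG12, 4 other senescence or chlorophyll breakdown genes, and the summed level of 8 flower markers by library, in CPM on axes that start at 0. Circles are replicate 1, triangles replicate 2 and lines the mean of 2 libraries. SAG12, BFN1, WRKY53, SGR1 and the marker sum are all highest in the 2 droughted OE libraries, and SGR2 overlaps between droughted OE and WT plants.

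SAG13 varied in another way. Its level was 44.1 and 48.5 CPM in droughted OE libraries, 81.7 and 52.4 CPM in droughted WT libraries, 33.4 and 26.8 CPM in watered OE libraries, and 231.9 and 39.9 CPM in watered WT libraries. The first watered WT library was 5.81-fold above the second, the widest gap between replicates among the members. OE plants lay below WT plants in both conditions, without overlap, but neither difference was called by edgeR: -0.53 ± 0.88 under drought (adjusted p = 0.914) and -2.17 ± 0.92 with watering (adjusted p = 0.536), both log2 fold changes with SE. Without the second watered WT library, when the group is the single library at 231.9 CPM and the spread comes from the other groups, the value with watering was -2.94 with an adjusted p of 0.000292, drought against watering in WT was -1.80 (adjusted p = 0.00212), and the difference of the drought responses was 2.41 (adjusted p = 0.00715). Fitted on the OE libraries alone, the rise with drought in OE was called at 0.62 (adjusted p = 0.00363), against 0.62 ± 0.93 and 0.716 over all libraries. SAG13 lies beside similar genes in a cluster, and 2 of its 8 counts were not whole, so some of its reads may be shared with them.

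Of the 3 NAC genes, ORS1 was called in 1 comparison and NAP and ORE1 in none. NAP had 33.9 and 29.3 CPM in droughted OE libraries, 37.1 and 37.0 CPM in droughted WT libraries, 30.8 and 22.0 CPM in watered OE libraries, and 40.9 and 20.6 CPM in watered WT libraries. The droughted OE libraries lay below the droughted WT libraries, and the watered groups overlapped. No comparison of NAP was called, with adjusted p-values of 0.67 to 0.997. Without the first watered WT library, which stood apart from the rest, the value for droughted against watered WT plants was 0.85 on the log2 scale (adjusted p = 0.00772), with the watered group a single library at 20.6 CPM and the spread taken from the other groups.

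ORE1, also called NAC092 or NAC6, was at 30.2 and 26.1 CPM in droughted OE libraries, 31.9 and 35.8 CPM in droughted WT libraries, 28.6 and 20.5 CPM in watered OE libraries, and 34.8 and 22.5 CPM in watered WT libraries. Droughted OE libraries were again below droughted WT libraries, by -0.27 ± 0.21 on the log2 scale (adjusted p = 0.762), and no comparison was called. Across the 8 libraries ORE1 was among the 2 genes closest in profile to NAP. The root-mean-square difference of their centred log2 values was 0.11, against 0.34 for the NAP profile itself.

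ORS1 rose in droughted WT plants. It was at 28.0 and 29.7 CPM in droughted WT libraries, against 21.7 and 18.0 CPM in watered WT libraries, a log2 fold change of 0.54 ± 0.14 (adjusted p = 0.0196). Both droughted WT libraries were higher than both watered ones. In OE plants the levels were 22.1 and 22.8 CPM in droughted libraries and 22.7 and 17.8 CPM in watered libraries, which overlapped (0.15 ± 0.14, adjusted p = 0.527). The difference of the drought responses of OE and WT was -0.39 ± 0.20 and was not called (adjusted p = 0.447). The call in WT was lost without the first droughted WT library (adjusted p = 0.0642), the second (0.128) or the second watered WT library (0.157), and with DESeq2 (0.0801). Under drought, OE against WT was -0.36 ± 0.14, with an adjusted p of 0.417 in edgeR.

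Among the chlorophyll breakdown genes, SGR1 rose with drought in OE plants. It was at 29.1 and 26.2 CPM in droughted OE libraries and 17.5 and 15.0 CPM in watered OE libraries, without overlap. The log2 fold change was 0.77 ± 0.19 (SE), with an adjusted p of 0.0137 in edgeR. In WT plants it was at 21.6 and 20.0 CPM in droughted libraries and 24.1 and 14.9 CPM in watered libraries, where the droughted values fall between the watered ones (0.09 ± 0.19, adjusted p = 0.803). The difference of the drought responses of OE and WT was 0.67 ± 0.26 and was not called (adjusted p = 0.317), against 0.98 and an adjusted p of 0.0226 without the second watered WT library, when that group is a single library at 24.1 CPM and the spread comes from the other groups. The call in OE was lost without the first droughted OE library (0.69, adjusted p = 0.101) or the second watered OE library (0.66, adjusted p = 0.111). Droughted OE plants stood above droughted WT plants by 0.41 ± 0.18, with an adjusted p of 0.508.

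NYC1, PAO and PPH gave no call in edgeR in any comparison. NYC1 was at 346.4 and 266.3 CPM in droughted OE libraries, 274.0 and 264.9 CPM in droughted WT libraries, 358.2 and 350.4 CPM in watered OE libraries, and 352.6 and 324.6 CPM in watered WT libraries. PAO ranged from 80.7 to 138.8 CPM over the 8 libraries, and PPH from 82.7 to 111.1 CPM. The droughted NYC1 libraries lay below the watered ones of the same genotype, but with libraries scaled by their plain totals or by FPKM the sign turned for NYC1 in OE plants (0.14 with plain totals, against -0.21) and for PAO in both genotypes. No drought direction is therefore given for PAO, or for NYC1 in OE plants. Between OE and WT, NYC1 differed by 0.18 ± 0.14 under drought (adjusted p = 0.739) and by 0.06 ± 0.14 with watering (adjusted p = 0.915). PAO overlaps the end of AT3G44870 by 11 bases, a gene with too few counts to be tested.

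**Figure D3:**
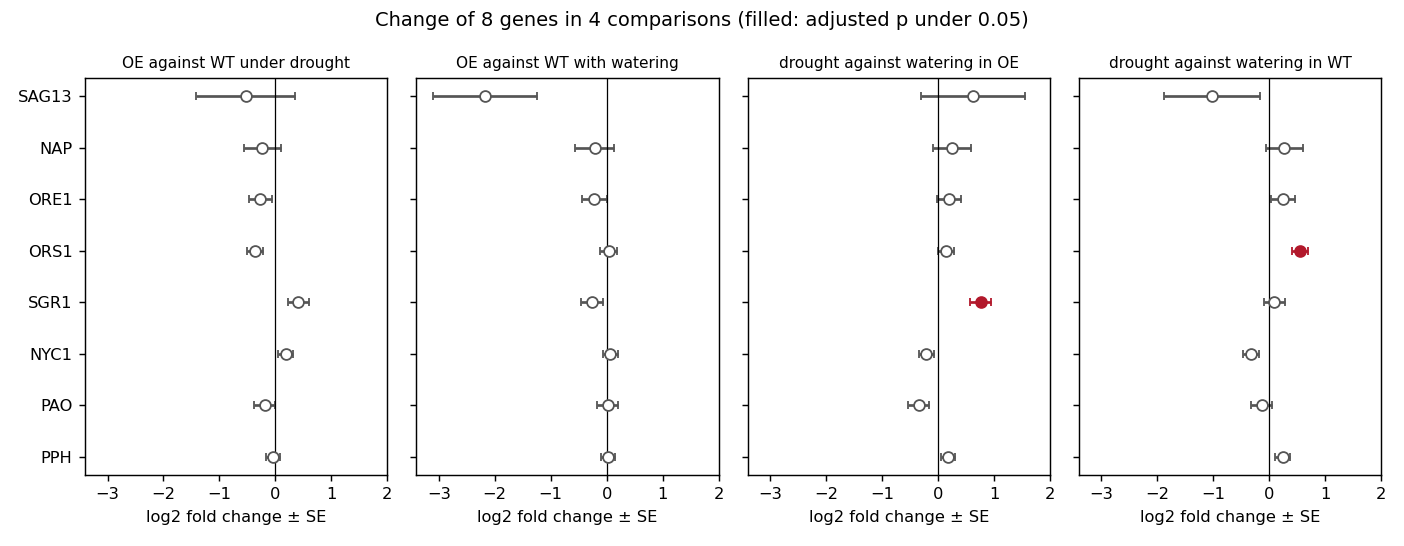
Log2 fold change with its standard error for 8 of the 9 genes (SAG12 is off this scale) in 4 comparisons, first-named group over second. Filled points passed an adjusted p of 0.05 in edgeR, which only SGR1 in OE plants and ORS1 in WT plants did among these 8. SAG13 has the widest errors, at 0.86 to 0.93.

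Counted over the 9 genes, edgeR called 0 higher and 0 lower between OE and WT under drought, where it called 0.296% of all genes (0.161% higher and 0.135% lower). At an unadjusted p under 0.05 there were 2 higher (SAG12 and SGR1) and 1 lower (ORS1), where 9.2% of all genes passed in either direction. DESeq2, which called 0.39% of the genes it tested, and limma on log2(FPKM + 1), which called 0.119%, each called 1 higher, SAG12. With watering edgeR called 0 of 9 in either direction, against 0.389% of all genes (0.296% higher and 0.0935% lower). At an unadjusted p under 0.05 it had 0 of 9 against 10.2% of all genes, and DESeq2 and limma also called 0, against 0.834% and 0.125% of their genes. The median log2 fold change of the 9 genes was -0.19 under drought and -0.22 with watering, against -0.01 and 0.00 over all genes tested. Groups that did not overlap were also counted. Under drought 2 members were higher in both OE libraries, where 19.6% of all genes were, and 4 were lower (SAG13, NAP, ORE1 and ORS1), where 20.9% were. With watering 0 were higher, where 21.7% of all genes were, and 1 was lower (SAG13), where 18.9% were.

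For drought against watering in OE plants, edgeR called 2 of 9 higher, SAG12 and SGR1, and 0 lower. It called 16.7% of all genes in this comparison, 6.77% as higher and 9.92% as lower. SAG12 passed the low-count filter through its droughted libraries alone, so its rise with drought is not independent of the filter. At an unadjusted p under 0.05 there were also 2 higher and 0 lower, where 30.8% of all genes passed. In WT plants it called 1 of 9 higher, ORS1, and 0 lower, where 13% of all genes were called, 5.63% as higher and 7.37% as lower. At an unadjusted p under 0.05 there were 1 higher and 1 lower (NYC1), where 26.9% of all genes passed. Without overlap, 3 members were higher (SAG12, SAG13 and SGR1) and 2 lower (NYC1 and PAO) in droughted OE libraries on TMM-scaled CPM, where 31.9% and 29.3% of all genes were; the fold changes of NYC1 and PAO in OE turn sign with plain totals. In droughted WT libraries 3 were higher (SAG12, ORS1 and PPH) and 1 lower (NYC1), where 28.8% and 25.7% of all genes were. The median log2 fold change of the members was 0.19 in OE and 0.24 in WT, against 0.02 in both over all genes. For the difference of the drought responses of OE and WT, edgeR called 0 of 9, against 0.161% of all genes (0.0987% higher and 0.0623% lower), with 1 (SGR1) at an unadjusted p under 0.05, where 12.5% of all genes passed. DESeq2 called 0, against 0.736% of its genes, and limma 1, SAG12, against 0.0727%.

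Replicates of 1 group also differed from each other unevenly over these genes. In watered WT plants the first library was above the second for all 8 members with a mean of at least 5 CPM, where 47.5% of 15065 such genes were. The median log2 difference between these 2 libraries was 0.58 over the members, and 4 of them (SAG13, NAP, ORE1 and SGR1) differed by at least 1.5-fold, where 2.67% of all genes did. In watered OE plants the first library was also above the second for all 8, with a median of 0.30, where 48.5% of all genes were. In droughted OE and in droughted WT plants this held for 7 of 9 genes each, where 52.8% of all genes in droughted OE and 50.4% in droughted WT plants were.

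**Figure D4:**
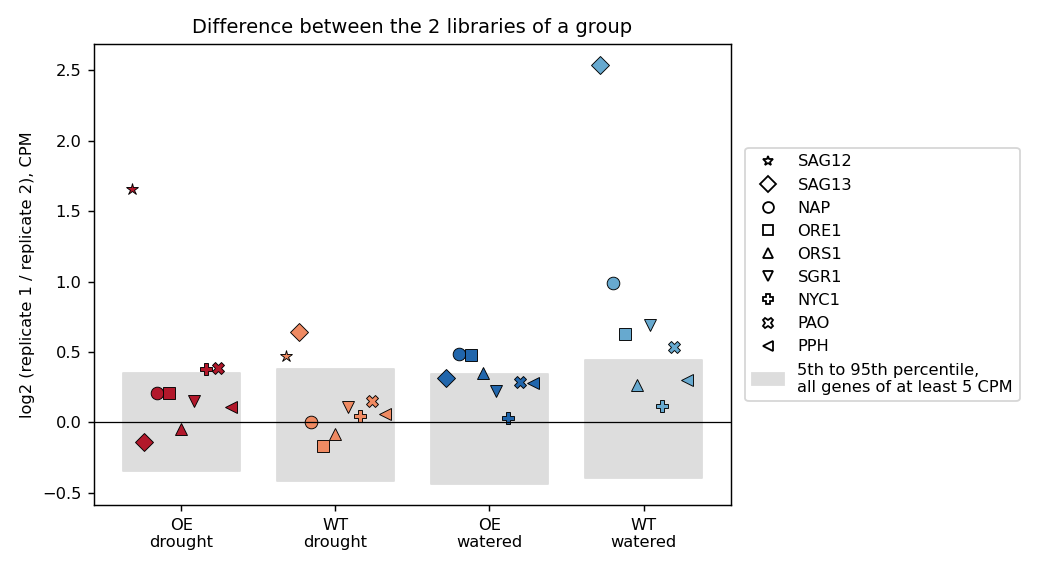
Log2 ratio of replicate 1 to replicate 2 for each member in each group, with grey bands for the 5th to 95th percentile of all genes of at least 5 CPM. In watered WT plants SAG13, NAP, ORE1, SGR1 and PAO lie above the band, and in droughted OE plants SAG12 lies furthest above it.

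Genes whose levels followed each member most closely over the 8 libraries were found by the root-mean-square difference of centred log2 values. SAG13 lay closest to GSTU4, a glutathione S-transferase gene, at 0.19 against 0.91 for its own profile, and GSTU4 too was highest in the first watered WT library, at 47.7 CPM against 11.6 CPM in the second. ORS1 lay closest to NF-YA1 at 0.06, NYC1 to ICME-LIKE1 at 0.06 and NAP to CSN5B at 0.10. ORE1 lay closest to AT5G23760 at 0.08, SGR1 to AT3G57360 at 0.11, PAO to AT3G26080 at 0.07 and PPH to AT4G33540 at 0.05. SAG12 had no close neighbour. The nearest, CSLA01, was at a distance of 2.19, against 3.78 for the SAG12 profile.

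Other genes of chlorophyll breakdown were read from a list of 12. For OE against WT none was called by edgeR under drought or with watering, while at an unadjusted p under 0.05 there were 4 lower under drought and 1 lower with watering. Of all genes, edgeR called 0.296% under drought and 0.389% with watering, and 9.2% and 10.2% passed the unadjusted threshold in either direction. DESeq2 and limma each called 1 of the 12 lower with watering, where they called 0.28% and 0.0571% of their genes lower, and 0 under drought. With drought, 1 rose and 4 fell in OE plants, and 1 rose and 2 fell in WT plants. Leaving out 1 library at a time moved these counts to 0 to 5 lower in OE plants (0 without the second watered OE library and 1 without the second droughted one), and to 0 to 3 higher and 0 to 2 lower in WT plants (0 in either direction without the second droughted WT library, and 3 higher without the first watered one). Of all genes, 6.77% rose and 9.92% fell in OE plants, and 5.63% rose and 7.37% fell in WT plants. The list medians were -0.38 in OE and 0.12 in WT on the log2 scale, against 0.02 in both over all genes. With plain totals the list medians were -0.02 in OE and 0.36 in WT, against 0.37 and 0.27 over all genes. SGR2, the paralogue of SGR1, rose in OE plants to 22.4 and 16.8 CPM in droughted libraries, against 8.69 and 7.5 CPM in watered ones (1.27 ± 0.22, adjusted p = 0.00161). In WT plants SGR2 was also higher in both droughted libraries, though not called by edgeR (0.605 ± 0.214, adjusted p = 0.083). The difference of its drought responses was not called either (0.668 ± 0.306, adjusted p = 0.394). CLH1, a chlorophyllase gene, fell in WT plants to 166.9 and 130.7 CPM in droughted libraries, against 681.2 and 392.7 CPM in watered ones (-1.85 ± 0.26, adjusted p = 0.0038), a call lost without the second droughted WT library (adjusted p = 0.0594). It also fell in OE plants, to a mean of 101.3 CPM in droughted libraries, against 206.5 CPM in watered ones (-1.03 ± 0.26, adjusted p = 0.0343). That call was lost with plain totals (-0.68, adjusted p = 0.11), with no low-count filter (0.0616) and without any 1 of the OE or droughted WT libraries (0.0589 to 0.181). With watering CLH1 averaged 206.5 CPM in OE and 536.9 CPM in WT plants, not called by edgeR (-1.38 ± 0.26, adjusted p = 0.101). The difference of the CLH1 drought responses was not called either (0.825 ± 0.362, adjusted p = 0.413). CLH2, another chlorophyllase gene, rose in WT plants to a mean of 5.99 CPM in droughted libraries, against 2.91 CPM in watered ones (1.04 ± 0.25, adjusted p = 0.0128). That call was lost with DESeq2 (adjusted p = 0.105) and without the second droughted or the second watered WT library. In OE plants CLH2 was also higher in both droughted libraries, though not called by edgeR (0.73 ± 0.282, adjusted p = 0.0898). ACD2, which reduces the opened pigment made by PAO, fell in OE plants to a mean of 44.5 CPM in droughted libraries, against 62.1 CPM in watered ones (-0.48 ± 0.12, adjusted p = 0.0105). With plain totals that change was -0.13 (adjusted p = 0.408), and the call was also lost without the second droughted OE library (0.152) or the second watered one (0.0646). AT1G44000 fell in OE plants (-0.71 ± 0.15, adjusted p = 0.00657) and in WT plants (-0.66 ± 0.15, adjusted p = 0.0122), calls that plain totals end, at 0.0637 in OE and 0.0552 in WT. They were also lost in OE without the first droughted (0.0572) or second watered library (0.055), and in WT without the first droughted (0.0531), second droughted (0.123) or second watered library (0.162).

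Of 32 regulators of senescence, edgeR called 1 higher and 0 lower for OE against WT under drought, and 0 higher and 1 lower with watering. More were called lower with watering when the second watered WT library was left out. That group is then the first library alone, which stood apart from the others, so the larger count is not read as a result. Of all genes edgeR called 0.161% higher and 0.135% lower under drought, and 0.296% higher and 0.0935% lower with watering. With drought, 2 regulators rose and 4 fell in OE plants, where 6.77% and 9.92% of all genes did, and 6 rose and 3 fell in WT plants, where 5.63% and 7.37% did. The list does not separate regulators that promote senescence from those that delay it, so these counts give no direction for senescence. The counts also depended on single libraries. They moved up and down with 1 library left out, and the largest were found without the second watered WT library, when that group is the first library alone. WRKY53, a WRKY factor that promotes leaf senescence, was at 78.7 and 75.3 CPM in droughted OE libraries, 46.8 and 53.6 CPM in droughted WT libraries, 36.2 and 38.2 CPM in watered OE libraries, and 47.9 and 42.0 CPM in watered WT libraries. The droughted OE libraries stood above all others. OE against WT under drought was 0.62 ± 0.11 (adjusted p = 0.0312), drought in OE was 1.05 ± 0.12 (adjusted p = 6.38e-05), and the difference of the drought responses was 0.89 ± 0.16 (adjusted p = 0.0447). The call between OE and WT was lost without any 1 of the 4 droughted libraries (adjusted p = 0.11 to 0.18) and with limma (0.0977 at a pseudocount of 1). The call on the difference was also lost with limma (0.0806 at a pseudocount of 1) and without 6 of the 8 libraries taken singly (0.0783 to 0.142).

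EEL, a bZIP factor gene related to ABI5, was lower in both OE libraries than in both WT libraries in each condition. Under drought it was at 6.41 and 6.37 CPM in OE libraries, against 10.4 and 10.9 CPM in WT libraries, which edgeR did not call. With watering it was at 5.92 and 6.15 CPM in OE libraries, against 11.0 and 12.4 CPM in WT libraries (-0.96 ± 0.17, adjusted p = 0.0287). DESeq2 did not call it (adjusted p = 0.0838), nor did edgeR without the first watered OE library (0.158), the second (0.104), the first watered WT library (0.0723) or either droughted WT library (0.0561 and 0.0544). The NAC genes NAC032 and VNI2 rose in droughted WT plants, NAC032 to a mean of 23.6 CPM in droughted libraries against 11.2 CPM in watered ones (1.08 ± 0.19, adjusted p = 0.00165), and VNI2 to 152.4 CPM in droughted libraries against 75.3 CPM in watered ones (1.02 ± 0.18, adjusted p = 0.00407; 0.0684 without the second droughted WT library). In OE plants both genes were also higher in both droughted libraries than in both watered ones. NAC032 was at 18.3 and 17.7 CPM there, against 11.1 and 14.4 CPM in watered OE libraries. VNI2 was at 114.7 and 93.2 CPM, against 83.2 and 63.9 CPM. GLK2, which promotes chloroplast development, rose in WT plants (0.82 ± 0.12, adjusted p = 0.000451). In OE plants GLK2 overlapped, at 45.9 and 57.5 CPM in droughted libraries, against 54.2 and 50.4 CPM in watered ones. The difference of the GLK2 drought responses was not called by edgeR (adjusted p = 0.0608). GLK1, its paralogue, fell in OE plants to a mean of 150.1 CPM in droughted libraries, against 233.5 CPM in watered ones (-0.64 ± 0.11, adjusted p = 0.00163; 0.0538 with limma on log2(FPKM + 1)). It also fell in WT plants, to 149.5 CPM in droughted libraries against 196.0 CPM in watered ones (-0.39 ± 0.11, adjusted p = 0.0337). That call was lost with plain totals (-0.15, adjusted p = 0.329) and without any 1 of the droughted or watered WT libraries or droughted OE libraries (0.0521 to 0.179). WRKY22 fell in OE plants (-0.94 ± 0.20, adjusted p = 0.00595). That call was lost without the first droughted (log2 fold change -0.751) or second watered OE library (-0.603). In WT plants WRKY22 was also lower in both droughted libraries, at 10.2 and 9.23 CPM, against 12.1 and 13.8 CPM in watered ones.

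Of 22 other senescence-associated genes, edgeR called 1 higher for OE against WT under drought, where it called 0.161% of all genes higher. With watering it called 0, against 0.389% of all genes, with 3 higher and 5 lower at an unadjusted p under 0.05, where 10.2% of all genes passed in either direction. DESeq2 called 1 higher, against 0.555% of its genes, and limma 0, against 0.125%. When the second watered WT library was left out, edgeR called some lower with watering, and that group is then the first library alone. With drought, 3 rose and 2 fell in each genotype, where 6.77% of all genes rose and 9.92% fell in OE plants and 5.63% rose and 7.37% fell in WT plants. These counts also changed in both genotypes with 1 library left out. BFN1, a nuclease gene of senescence and programmed cell death, had 26 and 23 counts in droughted OE libraries, 2 and 1 in droughted WT libraries, 2 and 1 in watered OE libraries, and 3 and 1 in watered WT libraries. It passed the low-count filter through its droughted OE libraries alone. Its calls, and the counts above that include it, are therefore not independent of the filter. The droughted OE libraries were above all others, although the level there was only 2.14 and 1.86 CPM. The pooled count ratio of OE to WT under drought was 15.0, with a 95% counting interval of 4.84 to 75.2, and edgeR called the difference (adjusted p = 0.0215). Drought against watering in OE had a pooled ratio of 13.1, with an interval of 4.23 to 65.8 (adjusted p = 0.00163). The difference between OE and WT was not called by DESeq2 (0.177), by limma at a pseudocount of 0.1 (0.0771) or without any 1 of the 4 droughted libraries (0.0829 to 0.307). The flower marker sums above were highest in the same 2 libraries, and their part in this result was not tested.

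SEN1, a gene first known as induced by darkness, fell with drought in both genotypes, to a mean of 43.5 CPM in droughted OE plants against 131.2 CPM in watered OE plants (-1.59 ± 0.22, adjusted p = 0.00253), and to 45.8 CPM in droughted WT plants against 140.4 CPM in watered WT plants (-1.62 ± 0.22, adjusted p = 0.00269). GAMMA-VPE, a vacuolar processing protease gene, rose in WT plants to 1977.9 and 1901.9 CPM in droughted libraries, against 620.0 and 552.9 CPM in watered ones (1.73 ± 0.19, adjusted p = 4.5e-05). PPDK, which acts in nitrogen remobilisation, rose in WT plants (0.79 ± 0.14, adjusted p = 0.00147). In OE plants both genes were also higher in both droughted libraries than in both watered ones. GAMMA-VPE was at 1549.2 and 1163.6 CPM there, against 1083.4 and 794.5 CPM in watered OE libraries. PPDK was at 141.4 and 117.8 CPM, against 114.3 and 99.9 CPM. SAG20 fell in OE plants (-0.51 ± 0.12, adjusted p = 0.00931), which plain totals reduced to -0.15 (adjusted p = 0.254) and which was not called without the second droughted (0.131) or second watered OE library (0.0538). Of 18 autophagy genes 1, ATG8B, was called with drought, where 16.7% of all genes were in OE plants and 13% in WT plants. It was higher with drought in OE plants (0.49 ± 0.15, adjusted p = 0.0312; 0.0934 with DESeq2, and 0.051 to 0.234 without any 1 of 5 libraries) and in WT plants (0.85 ± 0.14, adjusted p = 0.00127). ATG8B counts were not whole in any library, and neither were those of ATG8A, so some ATG8B reads may be shared between them. Genotype contrasts called 0 of the 18 in edgeR, against 0.296% of all genes under drought and 0.389% with watering. At an unadjusted p under 0.05 there were 1 higher and 1 lower under drought, where 9.2% of all genes passed in either direction, and 0 with watering, where 10.2% passed. DESeq2 and limma also called 0.

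**Figure D5:**
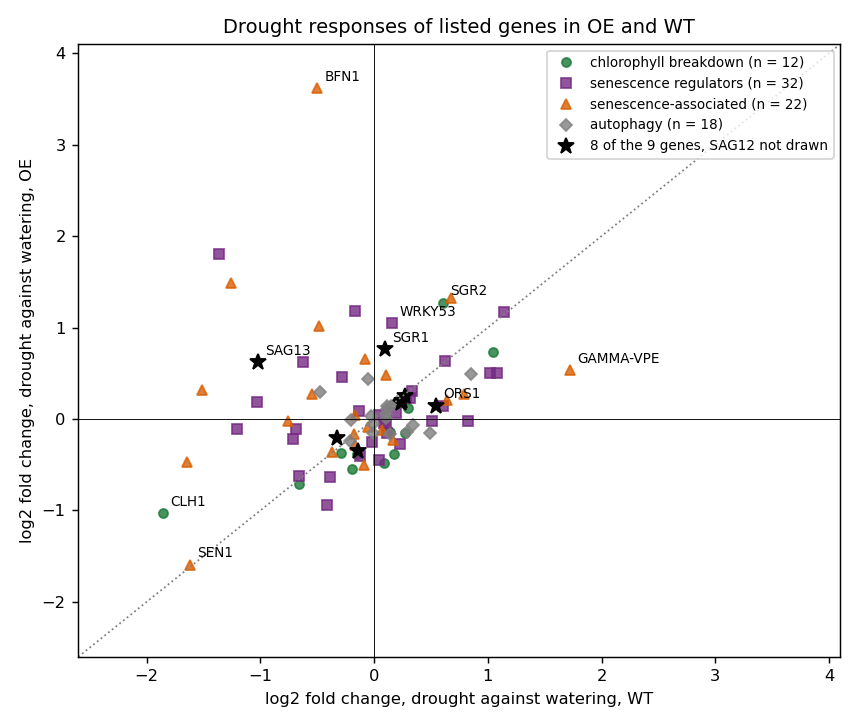
Log2 fold change of droughted over watered plants in OE (vertical) and in WT (horizontal) for 84 listed genes and 8 of the 9 members, with a dotted line where both are equal. BFN1, with 26 and 23 counts in droughted OE libraries, lies furthest above the line, and GAMMA-VPE lies furthest to its right, at 1.73 in WT.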

How the data were processed

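RNA-seq of 8 Arabidopsis libraries was analysed, grouped by sample title into 4 groups of 2. For each library the authors deposited expected counts by gene, which are not normalized, and FPKM values, as the columns are named per the file headers. Tools named in the submitters' processing notes are STAR, HISAT2 2.0.5, featureCounts and edgeR, with the build TAIR10 and no roles; which tool made the counts, and whether strand was used, is not given in the sources used here. Genes absent from a library's table were set to 0. Between 88.06% and 88.81% of listed counts were whole within 0.005.

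Expected counts were rounded and fitted over all 8 libraries with edgeR 4.0.16 in R 4.3.3 (TMM scaling, filterByExpr at a minimum count of 10, robust quasi-likelihood). The 5 comparisons were OE against WT under drought and with watering, drought against watering in OE and in WT, and the difference of these drought responses. Tests were two-sided and p-values were adjusted over 19259 genes by the Benjamini-Hochberg method, with 0.05 as the threshold. The model left 4 residual degrees of freedom, and the biological coefficient of variation was 10.2%. A standard error is the log2 fold change divided by the square root of F. CPM uses TMM-scaled library sizes. The scripts were tested on simulated data. Alternatives were DESeq2 1.42.0, limma 3.58.1 on log2(FPKM + 1) and log2(FPKM + 0.1), other scalings and filters, the replicate number as a block, and each library left out. Count intervals are exact at 95% and cover counting error only, and a count of 0 allows 3 counts, or 0.242 to 0.313 CPM.

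The 9 genes and the 4 lists of other genes were chosen with earlier results of these data known. Of each list, up to 3 called genes per comparison with the smallest adjusted p were named, and for each gene those closest in profile over the 8 libraries. SGR2 is a synonym of AT4G11910. Positions, sequences and symbols come from TAIR10.1 (RefSeq).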

Additional observations from a re-analysis of the deposited data

Results flagged for a closer look

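None of the 9 genes met the rules for a closer look. Of the other listed genes named in the report, 5 did, because the sign of the change of every library differed between the genotypes or between the conditions, or because the difference of the drought responses of OE and WT was itself called by edgeR. Only WRKY53 was called, with a difference of 0.888 on the log2 scale (adjusted p = 0.0447): OE libraries were above WT libraries under drought and below them with watering. For GAMMA-VPE the difference was -1.195 (adjusted p = 0.0703) and for GLK2 it was -0.839 (adjusted p = 0.0608), both with OE libraries below WT libraries under drought and above them with watering. For ACD2 it was -0.571 (adjusted p = 0.162), with droughted libraries below watered ones in OE and above them in WT. For EEL it was 0.217 (adjusted p = 0.782), with droughted libraries above watered ones in OE and below them in WT.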

How the results depend on the processing

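Over the 9 genes, 646 of 755 values under the alternatives kept their sign and their side of the threshold, 13 lost a call, 32 gained one, 64 changed sign without a call in either fit, and 0 called values reversed. For OE against WT under drought, the count of the 9 genes called higher was 0 in edgeR and 1 with DESeq2, with limma on either FPKM scale, with the replicate block and with edgeR without robust estimation, an alternative chosen after seeing the data. It was 0 to 1 with a library left out. With watering, 0 to 1 were called lower with a library left out. For drought in OE, 2 were called higher, 4 with plain totals and with limma on either scale, and 0 to 2 with a library left out. For drought in WT, 1 was called higher, 2 with plain totals, with only the libraries compared, with the replicate block and without robust estimation, 3 with limma on either scale, and 0 to 2 with a library left out, where 0 to 1 were called lower. For the difference of the drought responses, 0 were called higher, 1 with limma on either scale, and 0 to 2 with a library left out. For drought in OE, limma called 35.2% of all genes higher at a pseudocount of 1 and 34.9% at 0.1. For drought in WT these shares were 19% and 18.6%, so the added member calls with limma go with a shift over all genes. The cause of these changes was not tested.

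The libraries of different groups share replicate numbers in the labels, with no statement that a number marks a shared batch. Correlations of the deviations of same-numbered libraries were -0.08 to 0.063. With the replicate block, SAG12 was called for OE against WT under drought at 4.37 (adjusted p = 0.00409) and for drought in WT at 6.56 (adjusted p = 0.0058), and 1 and 2 of the 9 genes were called higher in those comparisons. WRKY53 lost its call for the difference of responses (adjusted p = 0.0514).

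Scaling moved all genes: with plain totals the median log2 fold change over all genes was 0.37 for drought in OE and 0.27 for drought in WT, against 0.02 for both with TMM, and ORS1 and PPH in OE and PPH in WT were called only with plain totals or FPKM. With 2 libraries a group, SAG12 and SAG13 are limited by the gap between replicates, and SAG12 and BFN1 also by counts of 0 to 3 in their low groups.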
